A study of Mus musculus with 2 samples.

Results

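A set of 6 neuropeptide-system genes was followed in the cerebral cortex of Pax6-/- mouse embryos: the precursor genes Penk, Tac1, Sst, Npy and Trh, and Sstr2, which encodes a somatostatin receptor. They were chosen by name, and every probe set whose only gene symbol in the platform annotation was one of these 6 was used, which gave 10 probe sets of 12488 and 6 genes of 8252. The series compared the cerebral cortex of Pax6-/- embryos with that of wild type embryos of the NMRI strain at stage E14.5 of embryonic development, to look for genes that depend on the transcription factor Pax6. Each genotype has 1 array, and although 3 mutant and 3 wild type embryos are mentioned, pooling of their RNA is neither stated nor denied. The allele behind Pax6-/- is not named in the labels. With 1 array per genotype, the differences below have no replicate check and are given as sizes, without p-values.

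Neuropeptides are cut from larger precursor proteins by proteases of the secretory pathway, stored in dense-core granules, and act on G protein-coupled receptors. In the forebrain, Penk (enkephalins) and Tac1 (substance P and neurokinin A) are best known from the projection neurons of the striatum, and Sst (somatostatin) and Npy (neuropeptide Y) from GABAergic interneurons that are born in the ventral telencephalon and migrate into the cortex. Trh, the precursor of thyrotropin-releasing hormone, is best known from the hypothalamus. Sstr2 is expressed by newborn cortical neurons as they leave the ventricular zone, and its ligands are somatostatin and cortistatin.

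Sstr2 is the only one of these genes with several probe sets that all lay on the same side, and Sst encodes its ligand, so the promoters of this ligand and receptor pair are shown. They are the RefSeq sequences from 250 bases before to 50 bases after the start site on build GRCm38.p6, for Sstr2 at chr11:113619077-113619376 on the plus strand and for Sst at chr16:23890795-23891094 on the minus strand. Capitals mark TGACGTCA, the palindromic cyclic AMP response element to which CREB binds.

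Sstr2: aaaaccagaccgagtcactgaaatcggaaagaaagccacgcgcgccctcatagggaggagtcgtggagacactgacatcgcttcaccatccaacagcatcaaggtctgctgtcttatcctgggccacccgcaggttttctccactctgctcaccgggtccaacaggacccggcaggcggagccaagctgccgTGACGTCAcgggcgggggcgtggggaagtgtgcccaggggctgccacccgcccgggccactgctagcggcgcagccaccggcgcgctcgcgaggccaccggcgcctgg

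Sst: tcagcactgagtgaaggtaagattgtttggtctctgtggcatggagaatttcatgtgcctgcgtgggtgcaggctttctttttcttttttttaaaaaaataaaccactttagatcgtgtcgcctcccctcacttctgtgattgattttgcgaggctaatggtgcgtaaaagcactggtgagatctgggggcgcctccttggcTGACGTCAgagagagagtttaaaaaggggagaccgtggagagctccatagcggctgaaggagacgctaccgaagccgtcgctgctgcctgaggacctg

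The element begins 58 bases before the start site in Sstr2 and 48 bases before it in Sst. It was present in 588 of 32851 RefSeq promoters of the same length, or 1.79%, and in none of Tac1, Npy and Trh, the other members with a sequence in the table. The letters CANNTG, the core bound by basic helix-loop-helix factors such as the proneural proteins, were absent from the Sstr2 window, present at 1 position in Sst, and present in 72.3% of all promoters. Both motifs read the same on either strand and did not overlap here. They were chosen after the sequences were seen, and a match describes the letters only.

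The values are MAS5 signals, the authors' linear intensity per probe set. The median signal was 283.7 on the Pax6-/- array and 237.3 on the wild type array. Log2 ratios below are Pax6-/- over wild type, taken after adding 81.5 to every signal as a pseudocount, which is the 25th percentile over both arrays, and centred on the median, so they understate the difference of dim genes. A signal filter at the 40th percentile of mean log2 value, about 166 in signal, was passed by 8 of the 10 probe sets and by 5589 genes. As a technical spread, the log2 ratios of different probe sets for the same gene differed with an SD of 0.71 per probe set at mean signals up to about 659, 0.50 up to about 1307 and 0.45 above, and of 0.70 below the filter. This spread contains nothing of the variation between embryos. Pax6 itself had a signal of 447 in Pax6-/- cortex and 1169 in wild type cortex, a log2 ratio of −1.29. Of the 8 cortical identity genes measured, all 8 passed the filter, 6 lower and 2 higher. Tbr1, a deep-layer transcription factor, was the only 1 past 2-fold, with 2405 in Pax6-/- cortex and 5088 in wild type cortex. Over all genes above the filter, 5.46% were 2-fold lower.

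Among the 10 probe sets, 1 was at least 2-fold higher in Pax6-/- cortex, that of Trh, and 2 were at least 2-fold lower, 1 each of Sstr2 and Penk. Over all 10855 probe sets with 1 symbol, 7.00% were 2-fold higher and 5.52% were 2-fold lower. Of the 10, 7 probe sets had a ratio below 0 and 3 had a ratio above 0. The groups of genes did not share a direction: the interneuron precursors Sst and Npy and the receptor gene Sstr2 lay below 0, Tac1 and Trh above, and Penk on both sides. The sign of each of the 10 ratios was the same under all 5 alternative scalings and pseudocounts. These alternatives reuse the same 2 arrays, and a pseudocount cannot change which signal is higher, so this is no check of direction.

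**Figure D1:**
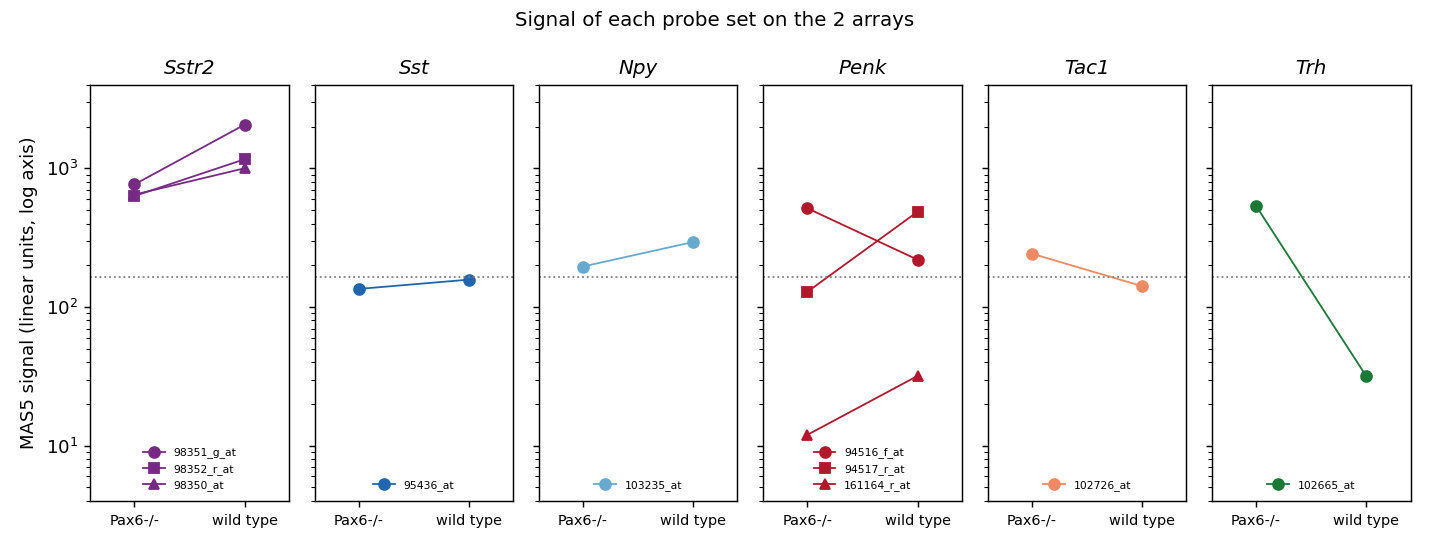
MAS5 signal (linear units on a log axis) of the 10 probe sets on the Pax6-/- array and the wild type array, 1 panel per gene and 1 line per probe set. The dotted line is the filter level of about 166. All 3 Sstr2 probe sets are lower in Pax6-/- cortex, the brighter Penk lines cross, and the Trh signal is 536 in Pax6-/- cortex against 31.6 in wild type cortex.

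Sstr2 was lower in Pax6-/- cortex on each of its 3 probe sets. The brightest had a signal of 766 in Pax6-/- cortex and 2069.6 in wild type cortex, a log2 ratio of −1.39, or 2.62-fold lower. The second had 632 in Pax6-/- cortex and 1165 in wild type cortex, a log2 ratio of −0.85. The third had 647 in Pax6-/- cortex and 1003 in wild type cortex, a log2 ratio of −0.62. Signals of different probe sets are not directly comparable in level, so only the ratio within each probe set is read here. The ratios were 2.79, 1.70 and 1.24 times the technical spread of 0.50 at that level, so the size of the difference was not settled between the probe sets although its direction was shared. The ID of the brightest ends in _g_at and that of the second in _r_at, an ending that marks relaxed selection rules. The third, with neither ending, gave the smallest difference, so the 2.62-fold size rests on the _g_at probe set alone. All 3 were designed on the same sequence record and may share probes, so they are not independent measurements.

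For comparison with other genes, above the filter, 112 genes were measured by 3 or more probe sets, of which 21 had all of them below 0, 14 had all above 0, and 77 were mixed. Among the 896 genes measured by 2 or more probe sets there, 231 had all below 0, 221 had all above 0 and 443 were mixed. With 3 or more probe sets most genes were thus mixed. Among those with 2 or more, a shared sign was about as frequent as a mixed one. By its brightest probe set Sstr2 ranked 122 from the lowest ratio among the 5589 genes. In its decile of signal, 1.95% of 1129 probe sets were 2-fold lower, against 8.57% of the 1097 in the decile of the 2 brighter Penk probe sets.

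The genes of migrating cortical neurons and intermediate progenitors, the cells in which Sstr2 is known, had a median log2 ratio of −0.80, against −0.021 over all genes above the filter. The list had 14 genes above the filter, 11 lower and 3 higher, and 6 were at least 2-fold lower, where 5.46% of all genes above the filter were 2-fold lower. With quantile or loess scaling 9 were lower and 5 higher. Rnd2, a small GTPase of migrating neurons, was at −1.44, and Neurod1, a neuronal differentiation factor of the intermediate progenitor lineage, was at −1.43, close to the −1.39 of Sstr2. Eomes, the transcription factor of intermediate progenitors, was at −3.44, Neurog2, a proneural factor, at −1.94, the semaphorin receptor gene Nrp1 at −1.53 and the Notch ligand gene Dll1 at −1.21. The second probe set of Eomes, above the filter, was at −1.39. Those of Nrp1 and Dll1, below the filter, were at 0.08 and −0.02. On the other side Robo1, a slit receptor gene, was at 0.58 and Nhlh1, a factor of newborn neurons, at 0.53. In bulk cortex, fewer cells of a type and less RNA per cell cannot be told apart.

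The other somatostatin receptor genes gave smaller or opposite ratios, or lay below the filter. Sstr4 had 1236 in Pax6-/- cortex and 960 in wild type cortex, a log2 ratio of 0.29. Sstr5 had 361 in Pax6-/- cortex and 125 in wild type cortex, a log2 ratio of 1.06, and passed the filter only through its Pax6-/- signal. Sstr1, with 60.5 in Pax6-/- cortex and 43.1 in wild type cortex, and Sstr3, with 67.8 in Pax6-/- cortex and 71.3 in wild type cortex, lay below the filter, at log2 ratios of 0.14 and −0.08. Whether Sstr2 differs from its relatives was not tested.

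The somatostatin gene itself was dim on both arrays. Sst had a signal of 135 in Pax6-/- cortex and 158 in wild type cortex, below the filter, and its log2 ratio of −0.19 was 0.27 of the technical spread. The cortistatin gene Cort, which encodes the other ligand of these receptors, had 448 in Pax6-/- cortex and 367 in wild type cortex, a log2 ratio of 0.19. Both ligand genes thus lay within the technical spread. The ratios of Sstr2 were 1.24 to 2.79 times the spread at its level, on probe sets that are not independent. Npy had 196 in Pax6-/- cortex and 295 in wild type cortex, a log2 ratio of −0.48, or 0.69 of the technical spread, and it passed the filter. Over the alternatives the ratio of Npy ran from −0.66 to −0.32 and that of Sst from −0.36 to −0.12, short of 2-fold in each.

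Interneuron genes measured beside Sst and Npy were split. Among 11 genes of the interneuron and GABAergic list above the filter, a list that leaves out Sst and Npy, 7 were higher and 4 lower. The homeobox genes Dlx1, Dlx2 and Dlx5 of the ventral telencephalon, at 4.59, 3.99 and 1.96, and the nuclear receptor gene Nr2f2, at 1.21, were 2-fold higher, where 5.05% of all genes above the filter were 2-fold higher. Of these 4, all but Dlx2 had wild type signals below the filter level and passed it only through the Pax6-/- array, so their count is a description. The GABAergic genes Gad1 and Slc32a1 were also higher, at 0.97 and 0.88. Their signals were 517 and 490 in Pax6-/- cortex and 215 and 219 in wild type cortex, above the filter level on both arrays. The 4 lower genes were Npas1, a transcription factor gene, at −2.06, Nos1 at −0.93, Lhx6 at −0.68 and Satb1 at −0.27. Npas1 and Nos1 had Pax6-/- signals of 57.8 and 124, below the filter level, and passed it only through the wild type array. Lhx6 and Satb1 are known from the lineage of Sst interneurons, and Nos1, which encodes neuronal nitric oxide synthase, marks cortical neurons that also make Npy and Sst. Sox6, a further factor of that lineage, was at 0.48, with a second probe set below the filter at −0.52. The list median was 0.88 above the filter and −0.022 with no filter.

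Penk had no settled direction. The brightest probe set, whose ID ends in _f_at, had a signal of 515 in Pax6-/- cortex and 219 in wild type cortex, a log2 ratio of 0.94. The second, ending in _r_at and designed on the same sequence record, had 129 in Pax6-/- cortex and 488 in wild type cortex, a log2 ratio of −1.48, and passed the filter only through its wild type signal. The third, also ending in _r_at, was below the filter at 12.0 in Pax6-/- cortex and 31.9 in wild type cortex, a log2 ratio of −0.32. The brighter pair lay 2.42 apart on the log2 scale, and among the 896 genes measured by 2 or more probe sets above the filter, 9 had probe sets at least that far apart. In Affymetrix naming the ending _f marks probes that may match a family of sequences and _r a probe set for which some selection rules were relaxed. Which Penk probe set measures the transcript more faithfully was not tested.

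Tac1, the other striatal precursor, was measured by 1 probe set at 243 in Pax6-/- cortex and 142 in wild type cortex. Its log2 ratio of 0.49 was 0.70 of the technical spread and ran from 0.29 to 0.73 over the alternatives. Tac1 passed the filter only through its Pax6-/- signal. Its relative Tac2, the precursor of neurokinin B, lay on the opposite side, with 93.7 in Pax6-/- cortex and 316 in wild type cortex, a log2 ratio of −1.23. Striatal projection neuron genes were as divided as the striatal peptides: of 7 above the filter, 3 were higher and 4 lower, with a median of −0.30, which turned to 0.083 with no filter. Pdyn, the dynorphin precursor of striatal neurons, had 439 in Pax6-/- cortex and 162 in wild type cortex, a log2 ratio of 1.05, although its other probe set, below the filter, was at 0.12. The homeobox gene Pbx3 was at 1.61, whereas the dopamine receptor gene Drd2 was at −0.70 and the phosphodiesterase gene Pde1b at −2.07.

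Trh showed the largest ratio of the 6 genes and rested on 1 probe set. Its signal was 536 in Pax6-/- cortex and 31.6 in wild type cortex, which is 16.9-fold in the deposited signals and 5.29-fold higher, a log2 ratio of 2.40, on the scale with the pseudocount. The wild type signal lay below that array's 25th percentile of 71.3, so the fold depends on how dim values are treated: the log2 ratio was 4.03 with no pseudocount and 1.42 with the larger pseudocount. Trh passed the filter only through its Pax6-/- signal. It ranked 6 from the highest among the 5589 genes. Of the 1210 probe sets at or below its wild type signal on the wild type array, the median on the Pax6-/- array was 42.0, and Trh was the only one of them to reach 536. In the opposite corner, 0 of the 755 probe sets at or below 31.6 on the Pax6-/- array reached 536 on the wild type array. Both limits are the signals of Trh itself, so these counts only describe where it lies. Mrpl55, just outside the limits, had 542 in Pax6-/- cortex and 43.1 in wild type cortex.

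**Figure D2:**
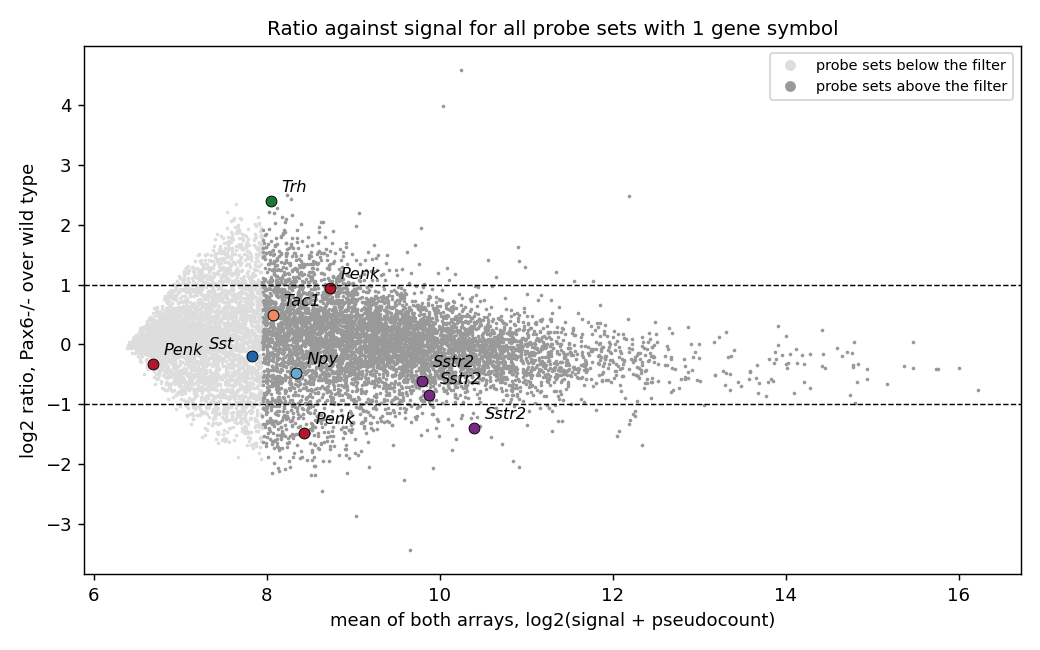
Log2 ratio (Pax6-/- over wild type) against the mean log2(signal + pseudocount) of both arrays for the 10855 probe sets with 1 gene symbol, with the 10 probe sets of the 6 genes in colour. Dashed lines mark 2-fold. Trh lies at the upper edge where signals are dim, and the 3 Sstr2 points lie at brighter signals, where the cloud is narrower.

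Hypothalamic genes other than Trh lay mostly above 0 by smaller amounts. Of 9 hypothalamic and diencephalic list genes above the filter, of 16 on the array, 7 were higher and 2 lower, where 48.4% of all genes above the filter were higher. The median was 0.40, and 0.18 with no filter. Otp and Sim1, transcription factors needed for the Trh neurons of the paraventricular nucleus in mice, were at 0.61 and 0.35. Sim1 passed the filter only through its Pax6-/- signal. Dlk1, a Notch-like membrane protein gene, was 3.19-fold higher at 1.67 and the LIM homeobox gene Lhx9, which passed the filter only through its Pax6-/- signal, was at 1.12. Nr5a1, a nuclear receptor gene, was at −0.24 on the brightest of its 5 probe sets and between −0.26 and 1.27 on the others. Rax, a factor of the early eye field and hypothalamus, was at −1.44 and passed the filter only through its wild type signal. The summed signal of the 16 genes was 9083 in Pax6-/- cortex and 7696 in wild type cortex. Of these sums, the brightest Nr5a1 probe set alone gave 4054 in Pax6-/- cortex and 4653 in wild type cortex. The part of the summed signal in the Trh difference was not tested. Oxt, the oxytocin precursor of the same nucleus, had 783 in Pax6-/- cortex and 234 in wild type cortex, a log2 ratio of 1.41. Avp, the vasopressin precursor made beside it, was below the filter with 55.5 in Pax6-/- cortex and 100.2 in wild type cortex, a log2 ratio of −0.45.

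**Figure D3:**
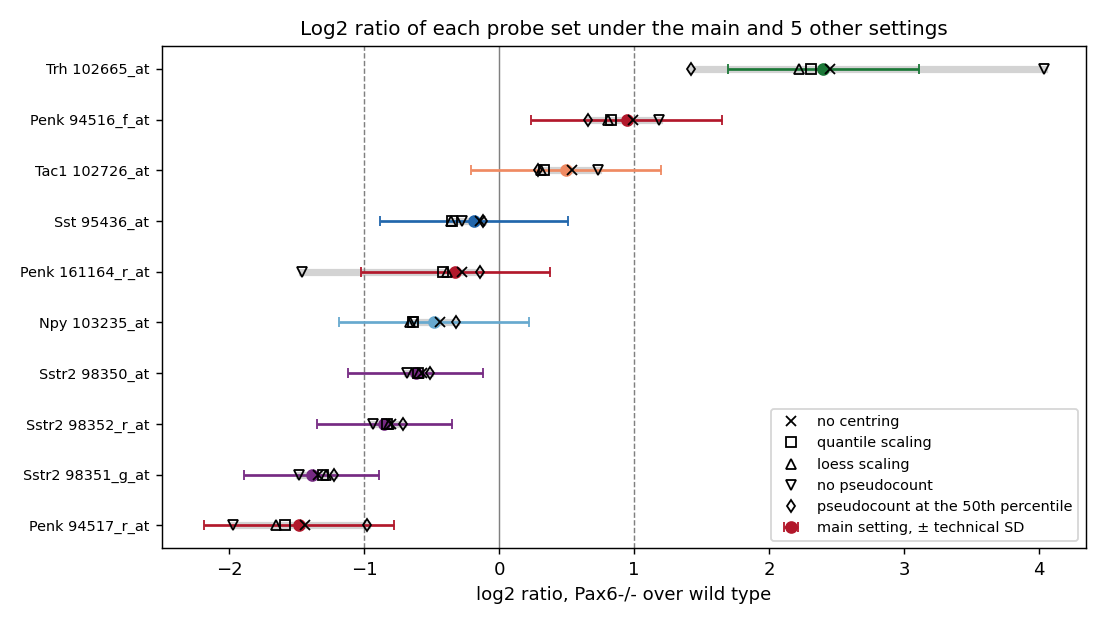
Log2 ratio (Pax6-/- over wild type) of the 10 probe sets under the main setting (coloured points, bars ± 1 technical SD at that signal level) and 5 alternative settings (open symbols and crosses, grey bars their range). No probe set changes sign, and Trh has the widest range, from 1.42 to 4.03.

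Receptors for the peptides were mostly dim. For Npy, Npy1r was at 0.27 and Npy6r at −0.12, and Npy2r was at 0.41 with a second probe set below the filter at −0.98. The opioid receptor genes Oprd1, Oprm1 and Oprk1, whose products bind enkephalins or dynorphins, were all below the filter. Oprk1 had 252 in Pax6-/- cortex and 41.9 in wild type cortex, a log2 ratio of 1.39, and Oprm1 had 81.2 in Pax6-/- cortex and 9.56 in wild type cortex. Of the tachykinin receptors, Tacr1, the substance P receptor gene, had 198 in Pax6-/- cortex and 185 in wild type cortex, a log2 ratio of 0.02, and Tacr2, the neurokinin A receptor gene, was at 0.79. The thyrotropin-releasing hormone receptor gene Trhr was below the filter, with 38.7 in Pax6-/- cortex and 27.6 in wild type cortex. 

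Across the whole list of neuropeptide receptors, 37 of 49 genes were on the array and 12 passed the filter, 10 of them higher and 2 lower, where 48.4% of all genes above the filter were higher. In the 3 dimmest deciles above the filter, 57.7% of genes were higher and 9.60% were 2-fold higher. The 3 that were 2-fold higher were Nmbr, the neuromedin B receptor gene, at 1.61, Crhr2, a corticotropin-releasing hormone receptor gene, at 1.42, and Sstr5. All 3 had wild type signals below the filter level and passed it only through the Pax6-/- array. The second Crhr2 probe set, below the filter, was at 0.04. Cckbr, the cholecystokinin B receptor gene, was the lowest at −0.27. The median was 0.35, and 0.15 with no filter.

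Among precursor genes other than the 5 followed here, 28 of 42 were on the array and 17 passed the filter, 15 higher and 2 lower, with a median of 0.23. With quantile or loess scaling 12 were higher and 5 lower. Vip, the precursor of vasoactive intestinal peptide, was at 1.02, and with Pdyn and Oxt made up the 3 that were 2-fold higher. Over all genes above the filter, 5.05% were 2-fold higher and 5.46% were 2-fold lower. In the 3 dimmest deciles above the filter, 9.60% were 2-fold higher. With quantile or loess scaling 1 of the 17 precursor genes was 2-fold higher. Vip and Pdyn passed the filter only through their Pax6-/- signals. Tac2 was the only one 2-fold lower and passed only through its wild type signal, and Gnrh1, the precursor of gonadotropin-releasing hormone, was at −0.79. Dim genes in general lay more often above 0: in the 3 dimmest deciles above the filter, 57.7% of 2605 genes were higher, with a median of 0.12.

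**Figure D4:**
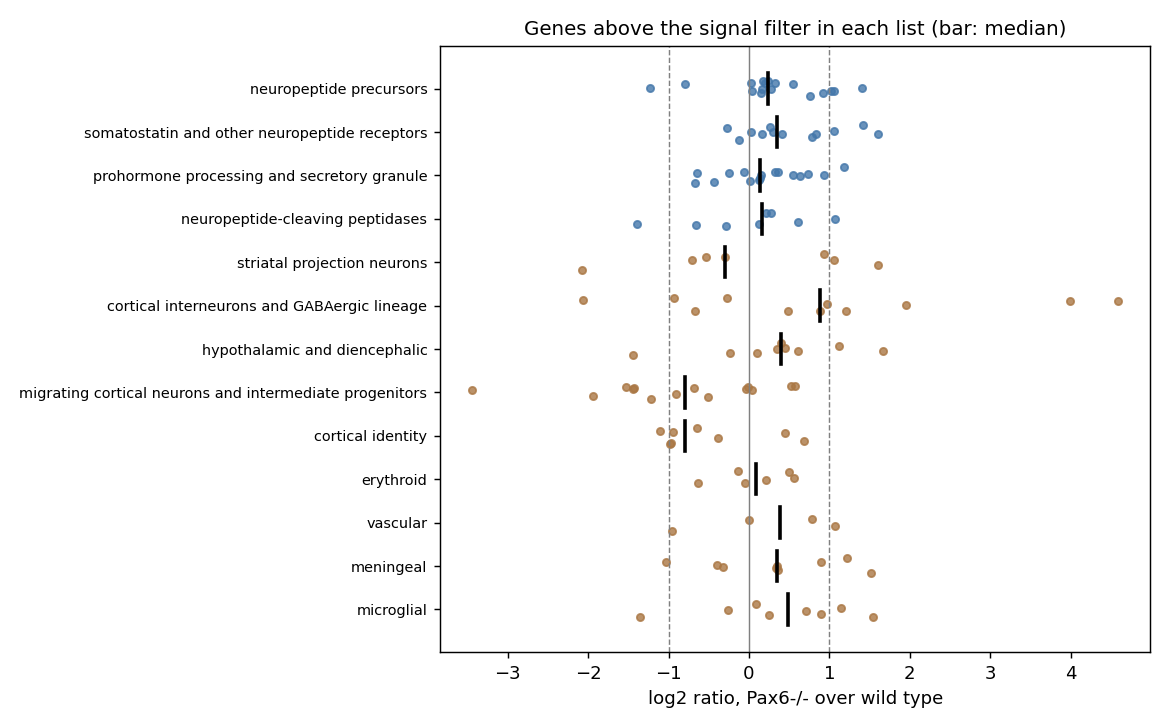
Log2 ratio (Pax6-/- over wild type) of every gene above the signal filter in the 13 lists, 1 point per gene by its brightest probe set, with the list median as a black bar; blue lists belong to the peptide system and brown lists mark cells. The migrating neuron and cortical identity lists have medians of −0.80 and −0.79, and the 4 peptide-system lists have medians between 0.14 and 0.35.

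The machinery that makes and stores peptides had a median of 0.14, with 11 of 16 genes higher and 5 lower. Pcsk1, a convertase that cuts several precursors, had 333.5 in Pax6-/- cortex and 96.4 in wild type cortex, a log2 ratio of 1.18. It was the only one past 2-fold, where 10.5% of all genes above the filter were past 2-fold in either direction. Pcsk1 passed the filter only through the Pax6-/- array. Pcsk6, a related convertase gene, was at 0.93. Pcsk1n, which encodes an inhibitor of Pcsk1, was at −0.67 and Scg5, which encodes a chaperone of the convertase Pcsk2, was at −0.65. Cpe, the carboxypeptidase that trims the cut peptides, was at 0.35 and −0.02 on its 2 probe sets above the filter.

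Marker genes of meninges, vessels, microglia and blood, which dissected cortex can contain, were summed over the genes on the array, each by its brightest probe set. Sums were 9263 in Pax6-/- cortex and 8245 in wild type cortex for 14 meningeal genes. They were 2461 in Pax6-/- cortex and 1989 in wild type cortex for 10 vascular genes, and 4252 in Pax6-/- cortex and 2573 in wild type cortex for 11 microglial genes. The microglial difference depends on the choice of probe set. Above the filter, the microglial median log2 ratio was 0.48 by brightest probe sets and 0.18 by the mean of probe sets. The 9 erythroid genes summed to 17084 in Pax6-/- cortex and 18906 in wild type cortex. Their part in the ratios of Trh, Penk, Tac1, Sst, Npy and Sstr2 was not tested.

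The genes nearest to each member on both arrays were found by the Euclidean distance between log2 values among the 5589 genes, which with 2 arrays describes level and ratio only. Nearest to Penk, by its brightest probe set, was Gad1, the gene for a GABA-synthesising enzyme, with 517 in Pax6-/- cortex and 215 in wild type cortex at a distance of 0.02, and then Traip. Sstr2 had Capns1, a calpain subunit gene, and Armcx2 as neighbours at distances of 0.09 and 0.13. Trh had Zfyve16 and Mrpl55, Tac1 had Relb and Crygb, and Npy had Cd9 and 2310061I04Rik.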

How the data were processed

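Biotin-labelled cRNA was made from total RNA for Affymetrix arrays, per the labels' protocols. The authors deposited 1 intensity per probe set and array; MAS5 is named in the submitters' processing notes, while the sources used here give neither its version nor a scaling target or detection calls. Probe-level data and array background were not analysed here, and precision is limited by there being 1 array per genotype.

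GEO's platform annotation gave 1 symbol to 10855 probe sets, several to 396 and none to 1237, and 10839 matched the GRCm38.p6 gene table by gene ID. Signals plus a pseudocount of 81.5 were taken to log2, Pax6-/- minus wild type, and centred by subtracting 0.05, the median above the filter (40th percentile of mean log2 value). A gene was represented by its brightest probe set. Sizes past 2-fold are counted, with no test.

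The genes and lists were chosen with earlier results of these data known. Named are all probe sets of the 6 genes, Pax6, genes of the peptide, striatal, interneuron, hypothalamic and migrating neuron lists past 2-fold or with the 2 largest differences on either side, and the 2 nearest genes of each member. The same rule also covers genes of the cortical identity, erythroid, vascular, meningeal and microglial lists. Apart from Tbr1 these are given by counts or summed signals only. Other list genes were named for their known link to a member, after their values were seen. Among them are Avp, Cort, Cpe, Lhx6, Otp, Satb1, Sim1, Sox6 and the receptor genes of the members' peptides. Gad1, also a nearest gene of Penk, and Slc32a1 are given to complete the higher genes of the interneuron list. The alternatives left out the centring, replaced it by quantile or loess scaling, dropped the pseudocount (with a floor at the 1st percentile) or raised it to the 50th, dropped the filter or raised it to the 60th percentile, averaged a gene's probe sets, used probe sets without a suffix, or set thresholds of 1.5-fold and 3-fold. The steps were also run on simulated data with noise set below the technical spread, which checks the calculation only and not these results. Python 3.11.15, numpy 2.4.6, pandas 2.3.3, statsmodels 0.14.6 and matplotlib 3.10.9 were used.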

Additional observations from a re-analysis of the deposited data

How the results depend on the processing

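Of 55 recomputed ratios of single probe sets, Pax6 included, 52 moved by less than the technical spread and none changed sign. All come from the same 2 arrays, so a kept sign is no check of direction. The 3 that moved were Trh, at 4.03 with no pseudocount and 1.42 with the 50th-percentile pseudocount, and the dimmest Penk probe set, at −1.46 with no pseudocount. Among the 10 probe sets the number 2-fold higher was 2 with no pseudocount and 2 at 1.5-fold, and the number lower was 3 with no pseudocount, 1 with the 50th-percentile pseudocount, 4 at 1.5-fold and 0 at 3-fold. Over all genes, 447 were higher and 436 lower with no pseudocount. With the 50th-percentile pseudocount 90 were higher and 127 lower, with no filter 498 and 525, with the 60th-percentile filter 97 and 113, at 1.5-fold 785 and 844, and at 3-fold 58 and 68, against 282 higher and 305 lower in the main setting and 210 and 364 after loess scaling.

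List medians were recomputed 117 times, and 101 of these moved by less than the technical spread over the square root of the number of genes. With no pseudocount the interneuron median was 1.11 and the microglial 0.69. With the 50th-percentile pseudocount the interneuron median was 0.61 and the cortical identity median −0.59. With no filter the medians were 0.15 for receptors, 0.083 for striatal, −0.022 for interneuron, 0.18 for hypothalamic and 0.21 for microglial genes. With the 60th-percentile filter they were 1.92 for interneuron, −0.90 for vascular and 1.20 for microglial genes. With the mean of probe sets the microglial median was 0.18. Without suffixed probe sets the medians were 0.68 for interneuron, 0.62 for meningeal and 0.25 for microglial genes. Apart from the filter and probe set choices, whose construction changes the genes entering, the cause was not tested. No paired analysis was possible because each genotype has 1 array, and for the same reason no array could be left out.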

Other observations

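Peptidases that cleave neuropeptides were divided between the genotypes. Of 12 list genes on the array, 8 passed the filter, 5 higher and 3 lower, with a median log2 ratio of 0.17, and 4 were higher and 4 lower with quantile or loess scaling. Dpp3, a dipeptidyl peptidase gene whose product cleaves enkephalins, had 82.4 in Pax6-/- cortex and 337 in wild type cortex, a log2 ratio of −1.40. Dpp3 passed the filter only through its wild type signal. Thop1, the gene for thimet oligopeptidase, had 509.8 in Pax6-/- cortex and 822 in wild type cortex, a log2 ratio of −0.66. Rnpep, which encodes aminopeptidase B, had 576 in Pax6-/- cortex and 223 in wild type cortex, a log2 ratio of 1.07. Enpep, which encodes aminopeptidase A, had 1384 in Pax6-/- cortex and 851 in wild type cortex, a log2 ratio of 0.61, although its second probe set, below the filter, was at 0.18. No replicate array bears on any of these differences.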
